A study of Mus musculus with 24 samples.

Results

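Protein tyrosine phosphatases take phosphate groups off tyrosine residues and so set how far a signal from the B cell receptor, a cytokine receptor or an inhibitory receptor travels. The 9 phosphatase genes described here are Ptpn6, Ptpn11, Ptprc, Ptprj, Ptpn22, Ptpn18, Ptpn1, Ptpn2 and Ptpn7. They were taken by symbol from the 27179 genes of the count tables, and all 9 were found in both tables and passed the filter on low counts in every comparison. RNA-seq was performed on lymph node B cells of C57BL/6 mice, either naive or after 48 h of culture with IL-4 and either CD40L or LPS, in 4 genotypes and with 2 libraries per genotype and stage (24 libraries). CD40L stands in for T cell help, LPS is a bacterial ligand of TLR4, and IL-4 is a cytokine that favours the switch to IgG1. The question asked of each comparison was which of these genes depend on PU.1 (encoded by Spi1), on SpiB (encoded by Spib), or on either of them, and whether that differs between resting and activated cells.

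The control genotype was Cd23T/+, which carries the Cre transgene under the Cd23 promoter. The PU.1 cKO genotype was Spi1fl/fl Cd23T/+, in which Cre deletes a Spi1 exon in mature B cells. The SpiB KO genotype was Spi1fl/fl Cd23+/+ Spib-/-, a germline deletion of Spib without Cre, so that it differs from control also in lacking Cre and in carrying the floxed alleles. The PU.1 SpiB DKO genotype was Spi1fl/fl Cd23T/+ Spib-/-. According to the study, part of the naive DKO cells still hold the floxed exon, while the cultured cells have lost it, so naive DKO cells model a partial loss of PU.1. Cells for RNA were sorted as CD3- B220+ CD138-, a gate that leaves out T cells and plasma cells but not plasmacytoid dendritic cells, which carry B220. The 3 genotype comparisons of a stage share the same 2 control libraries.

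PU.1 and SpiB are related transcription factors of the Ets family, and both recognise purine-rich DNA with a GGAA core. They are needed in B cells for genes of the B cell receptor pathway and for several immune sensors. Among the phosphatases, SHP-1 (Ptpn6) is the main brake recruited by inhibitory receptors with ITIM motifs, CD45 (Ptprc) and CD148 (Ptprj) act on Src family kinases from the cell surface, and PEP (Ptpn22) acts on the same kinases from the cytoplasm.

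The bases just before the start sites of 4 of the genes whose levels changed most are shown because both factors read the GGAA core. The sequences are from RefSeq on GRCm38.p6, each covers 250 bases upstream of an annotated start, is printed 5′ to 3′ on the strand of the gene, and has GGAA or its reverse complement TTCC in capitals. RefSeq windows were matched for 8 of the 9 genes (12 windows). Of those shown, the Ptprc and Ptpn22 windows lie inside the span given below for the gene, and the Ptprj window in part. Ptprc, Ptpn22 and Ptprj each have another window, which is not shown. For Ptpn6 the window is chr6:124738710-124738959 on the minus strand, for Ptprc chr1:138175306-138175555 on the minus strand, for Ptpn22 chr3:103859545-103859794 on the plus strand, and for Ptprj chr2:90580596-90580845 on the minus strand.
Ptpn6: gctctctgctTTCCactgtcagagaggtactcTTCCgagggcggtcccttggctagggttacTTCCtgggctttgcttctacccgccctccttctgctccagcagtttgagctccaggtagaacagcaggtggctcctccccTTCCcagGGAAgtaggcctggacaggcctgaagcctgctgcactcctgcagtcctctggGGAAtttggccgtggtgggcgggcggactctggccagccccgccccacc
Ptprc: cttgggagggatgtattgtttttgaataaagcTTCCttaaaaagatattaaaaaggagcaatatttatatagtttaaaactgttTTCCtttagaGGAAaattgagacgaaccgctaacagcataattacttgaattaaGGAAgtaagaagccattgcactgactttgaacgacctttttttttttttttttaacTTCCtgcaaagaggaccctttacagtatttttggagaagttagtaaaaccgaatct
Ptpn22: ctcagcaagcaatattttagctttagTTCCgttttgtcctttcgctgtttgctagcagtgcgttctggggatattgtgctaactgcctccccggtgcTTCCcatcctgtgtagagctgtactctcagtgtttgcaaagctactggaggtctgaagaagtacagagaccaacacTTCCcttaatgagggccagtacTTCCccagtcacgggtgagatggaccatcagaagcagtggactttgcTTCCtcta
Ptprj: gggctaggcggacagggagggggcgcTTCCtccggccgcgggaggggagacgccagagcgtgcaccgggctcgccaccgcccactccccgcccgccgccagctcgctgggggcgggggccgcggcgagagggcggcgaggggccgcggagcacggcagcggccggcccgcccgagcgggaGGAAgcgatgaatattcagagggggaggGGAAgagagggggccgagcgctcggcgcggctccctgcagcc

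The 4 windows hold 6, 5, 5 and 3 copies of the core, counted on both strands, and differ in base composition, from 31.6% GC at Ptprc to 79.2% at Ptprj. A core alone says little, since GGAA was present on 1 strand or the other in 93.4% of all 32851 RefSeq windows of this length and in 12 of the 12 windows of the phosphatase genes. The longer letters AGGAAGT, which contain GGAA, were found in 7.69% of all windows and in 3 of the 12, which belong to Ptpn6 and Ptprc, 2 of the 8 genes. In the Ptpn6 window they lie on the opposite strand, 190 bases before the start, and in the first Ptprc window on the same strand 113 bases before the start and on the opposite strand 58 bases before it. The Ptprc windows overlap, and the last of these sites is also the match in the other Ptprc window. GAGGAA was found in 23.3% of all windows and in 8 of the 12, and GAGGAAGT, which contains the 3 shorter motifs, in 2.44% of all windows and in 0 of the 12. These are matches of letters only, and no binding was measured here.

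Total counts were 14231188 to 18194629 per library in naive cells, 22757630 to 73658850 in LPS + IL-4 cultures and 9598674 to 11434235 in CD40L + IL-4 cultures, except for the second PU.1 cKO library there, which had 61640683. Replicate libraries correlated at r = 0.974 to 0.988 on the log2 CPM scale across genes. The CD40L + IL-4 libraries came in a count table of their own, so that culture and any difference in how the tables were made cannot be told apart in any comparison with that stage. Spib counts were low in every library that carries Spib-/- (at most 107 CPM against at least 170.3 CPM in the other libraries). Spi1 was lower in PU.1 cKO than in control at each stage (log2 fold change -1.54 in naive cells, -1.24 with CD40L + IL-4 and -0.63 with LPS + IL-4) and in DKO cells by -0.63 in naive cells and -1.73 with CD40L + IL-4, but by only -0.11 with LPS + IL-4 (adjusted p = 0.448). The Spi1 count covers the whole gene, including exons outside the deleted one, and so does not measure the deletion. All 10 B cell markers were detected in every group, with summed levels of 3356 to 13778 CPM.

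In naive control cells the 9 genes spanned a wide range of levels per kilobase of transcript, given here as the deposited log2 RPKM of the 2 libraries. Ptpn6 was highest at 8.12 and 8.39. Ptprc (7.36 and 7.80) and Ptpn18 (7.34 and 7.29) followed and did not differ beyond the spread of Ptprc. Ptpn1 came next at 5.82 and 5.97, then Ptprj at 4.88 and 5.00 and Ptpn11 at 4.28 and 4.43, each below the one before it in both libraries. Ptpn7 (3.56 and 4.00) and Ptpn22 (3.66 and 3.34) overlapped, and Ptpn2 was lowest at 2.68 and 2.50. All later levels are CPM, in which counts are divided by library size, here with TMM scaling over the 24 libraries, to be compared between groups for 1 gene and not between genes.

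**Figure D1:**
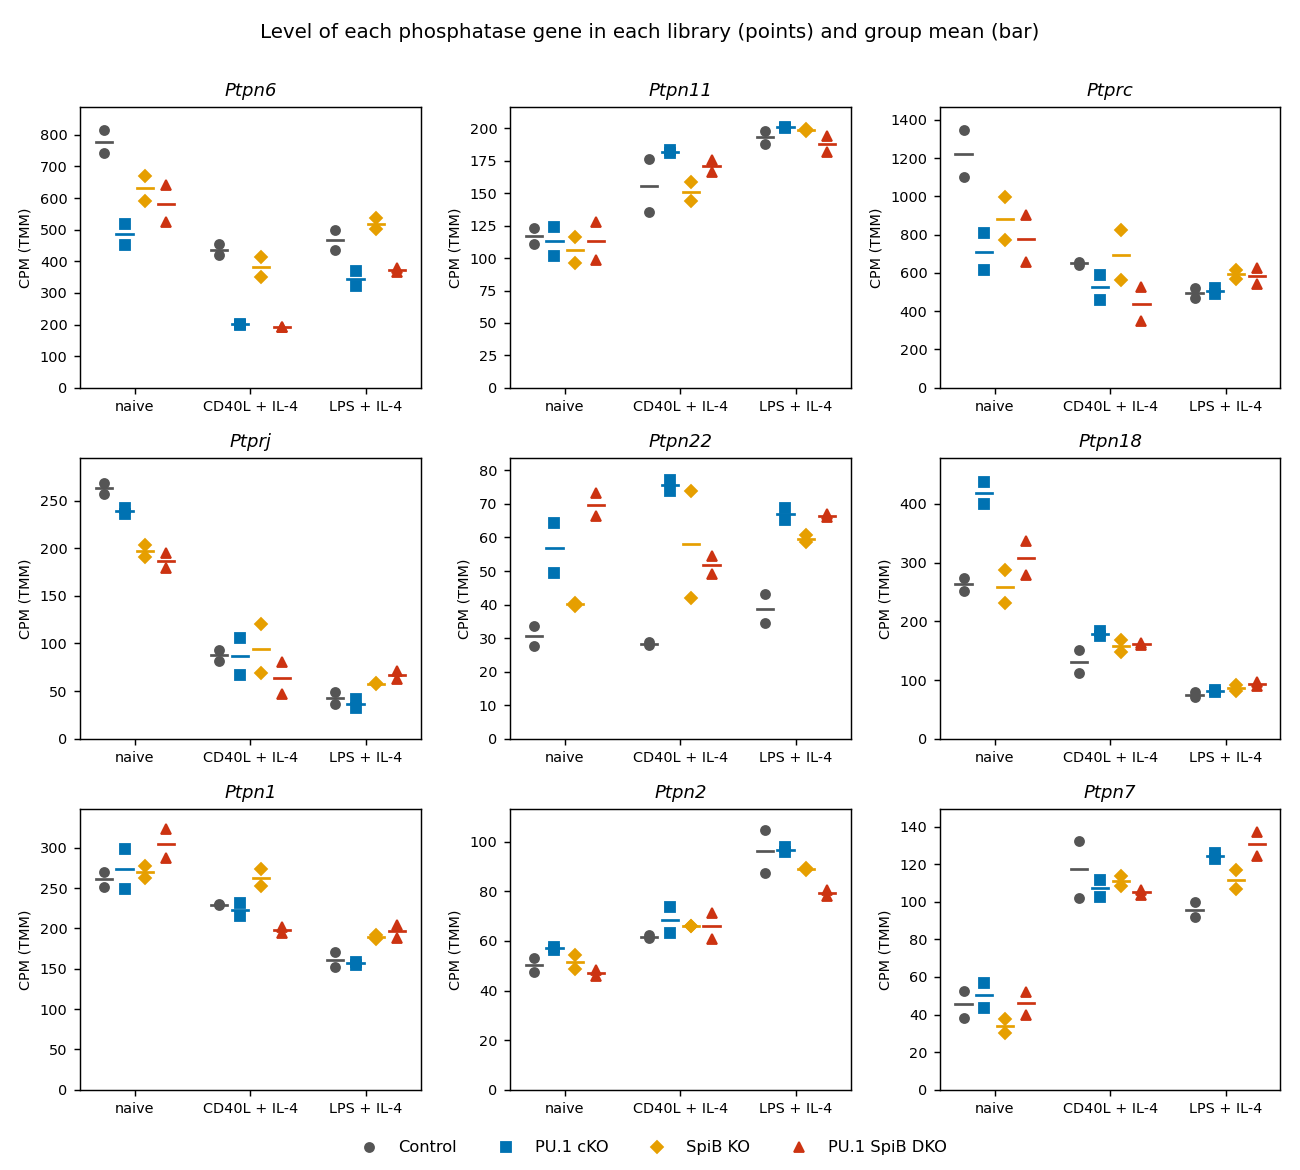
CPM (TMM-scaled, linear axis from 0) of each of the 9 phosphatase genes in naive, CD40L + IL-4 and LPS + IL-4 B cells; each point is a library, the bar is the mean of the 2 libraries and the symbols mark the 4 genotypes. The Ptpn22 points of the mutants lie above the control points at every stage, whereas the Ptpn6 points of PU.1 cKO and DKO lie below them.

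Genes were called differentially expressed (DE) where the Benjamini-Hochberg adjusted p was under 0.15 and the change over 1.5-fold, the thresholds of the study, with edgeR's quasi-likelihood test over all genes. In naive cells DE genes were 4 of the 9 for PU.1 cKO (10.7% of all genes tested), 0 for SpiB KO (9.62%) and 2 for DKO (21.2%). After CD40L + IL-4 the counts were 2 for PU.1 cKO (13.5%), 0 for SpiB KO (0.134%) and 2 for DKO (18.3%). After LPS + IL-4 they were 1 for PU.1 cKO (10.5%), 1 for SpiB KO (3.19%) and 2 for DKO (20.2%). The counts in DKO are thus near the share of all genes. That of naive PU.1 cKO was above it, but without the first PU.1 cKO library it was 1 of the 9. For SpiB KO, where edgeR called 0 of the 9, 3 had an unadjusted p under 0.05 in naive cells and 1 after CD40L + IL-4, and DESeq2 called 0 and 1. The p-values measure the spread between 2 libraries per group, and an exact permutation test of 2 against 2 cannot give a p under 0.333.

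**Figure D2:**
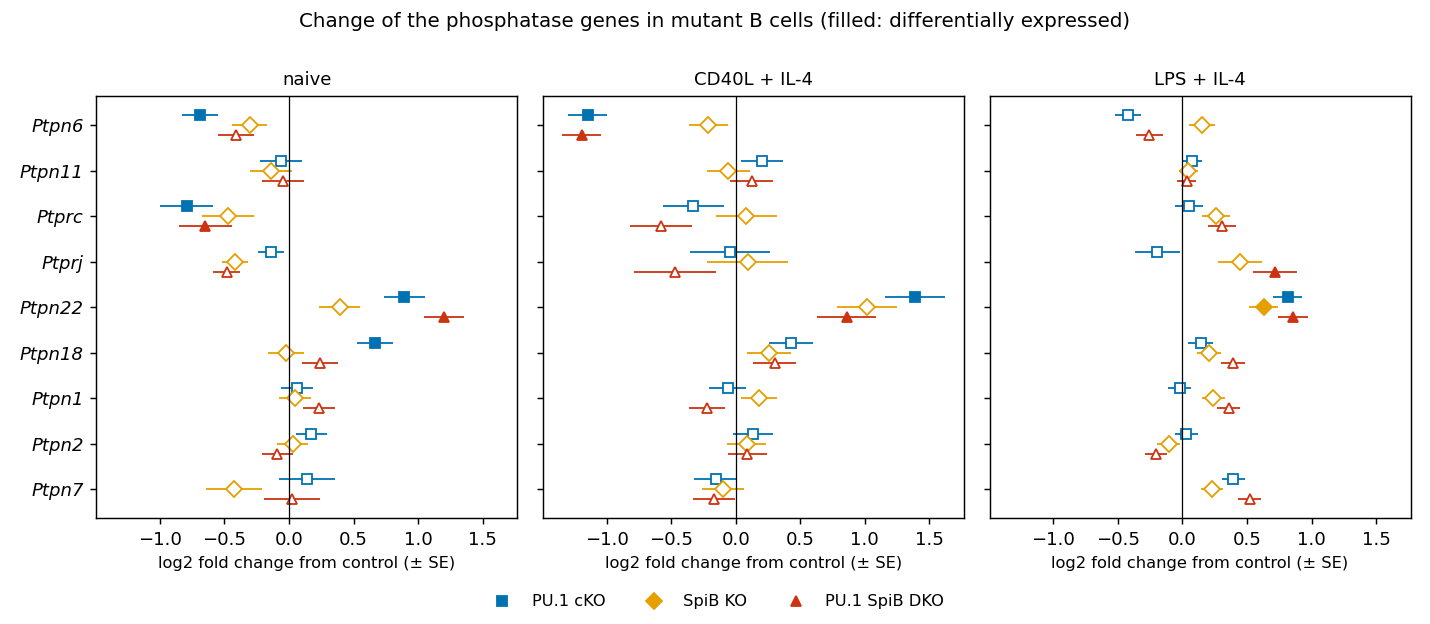
Log2 fold change from control with its standard error (horizontal axis, shared by the 3 panels) for each phosphatase gene in PU.1 cKO, SpiB KO and PU.1 SpiB DKO B cells; filled symbols are differentially expressed. Ptpn22 lies to the right of 0 in all 9 comparisons and is filled in 7 of them, and the 2 filled Ptpn6 symbols after CD40L + IL-4 lie beyond -1.

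Ptpn6 encodes SHP-1, the cytoplasmic phosphatase with tandem SH2 domains that docks on CD22, PIR-B, CD72 and other inhibitory receptors. The gene spans chr6:124720707-124738709. It fell in the absence of PU.1 at every stage, with the largest log2 fold changes after CD40L + IL-4. In that culture the control libraries had 454 and 419.98 CPM, the PU.1 cKO libraries 203 and 199 CPM, the SpiB KO libraries 414 and 349 CPM and the DKO libraries 193 and 192 CPM. The PU.1 cKO and DKO libraries lay close together and well below both control and SpiB KO, and SpiB KO lay below control without overlap. The level was 2.21-fold lower in PU.1 cKO (log2 fold change -1.15, SE 0.15, adjusted p = 0.000953) and 2.29-fold lower in DKO (log2 fold change -1.19, SE 0.15, adjusted p = 0.000535), and DKO was 1.97-fold lower than SpiB KO (log2 fold change -0.98, SE 0.15, adjusted p = 0.00249). These 3 calls held under each alternative and with each library left out. For DKO against PU.1 cKO 0 of the 9 genes were DE after CD40L + IL-4 with edgeR, DESeq2 or voom (4.06% of all genes), 1 of them having an unadjusted p under 0.05. For DKO against SpiB KO 2 of the 9 were DE (15.3%), namely Ptpn6 and Ptprc.

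In naive cells Ptpn6 stood at 741 and 814 CPM in control, while PU.1 cKO libraries had 451 and 519 CPM, SpiB KO libraries 592 and 669 CPM and DKO libraries 524 and 640.2 CPM. Every mutant library was below both control libraries, and those of PU.1 cKO were the lowest. Ptpn6 was 1.61-fold lower in PU.1 cKO (log2 fold change -0.69, SE 0.14, adjusted p = 0.0185). Without the first PU.1 cKO library the adjusted p was 0.172. In naive DKO Ptpn6 fell by less than the 1.5-fold limit (log2 fold change -0.41, SE 0.14, adjusted p = 0.0636), with an adjusted p of 0.34 without the first DKO library, 0.244 without the second control library and 0.206 with quantile normalization. After LPS + IL-4 it fell in PU.1 cKO (log2 fold change -0.42, SE 0.10, adjusted p = 0.0269) and in DKO (log2 fold change -0.26, SE 0.10, adjusted p = 0.0838), both under 1.5-fold, and it was lower in DKO than in SpiB KO (log2 fold change -0.41, SE 0.10, adjusted p = 0.0244). The PU.1 cKO call ended without the second PU.1 cKO library (adjusted p = 0.215), and the DKO call without the first control library (0.324), either DKO library (0.18 and 0.228) or with quantile normalization (0.274). The LPS + IL-4 libraries held 500.5 and 437 CPM in control, while PU.1 cKO libraries had 368 and 323 CPM, SpiB KO libraries 536 and 502 CPM and DKO libraries 379 and 368 CPM. For DKO against SpiB KO 0 of the 9 genes were DE after LPS + IL-4 with edgeR, DESeq2 or voom (12.8%), 2 of them having an unadjusted p under 0.05. At this stage 1 of the 9 was DE for DKO against PU.1 cKO (12.6%).

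Summed levels of B cell and plasma cell markers also differed between genotypes. In naive cells the 10 B cell markers summed to 13723 to 13778 CPM in control and 12741 to 13033 CPM in PU.1 cKO. The sums were 11298 to 11388 CPM in SpiB KO and 9546 to 10043 CPM in DKO. The sum was thus lowest in DKO. After CD40L + IL-4 the sum was 6699 to 8372 CPM in control and 5373 to 5717 CPM in PU.1 cKO. It was 6568 to 8857 CPM in SpiB KO and 4150 to 5084 CPM in DKO. The 7 plasma cell markers went the other way after CD40L + IL-4, at 1398 to 1621 CPM in control. They summed to 2061 to 2291 CPM in PU.1 cKO and 2583 to 2801 CPM in DKO. Xbp1 was the largest part, at 779 and 934 CPM in control and 1603 and 1760 CPM in DKO. After LPS + IL-4 the plasma cell sum was 739 to 814 CPM in control. It was 1288 to 1411 CPM there in PU.1 cKO and 1653 to 1671 CPM in DKO. In naive cells it was 502 to 504 CPM in control. It was 406 to 425 CPM in naive PU.1 cKO and 501 to 566 CPM in naive DKO. The part of these markers in the change of Ptpn6 was not tested. In RNA from a pool of cells, fewer cells of a kind and less RNA per cell cannot be told apart.

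Ptpn11 encodes SHP-2, the close relative of SHP-1 that mostly promotes Ras and MAP kinase signalling. It lies at chr5:121130533-121191397. Unlike Ptpn6, it did not pass the test in any comparison between genotypes. Against control its log2 fold change in DKO was -0.05 (SE 0.16, adjusted p = 0.869) in naive cells, 0.12 (SE 0.16, adjusted p = 0.669) after CD40L + IL-4 and 0.03 (SE 0.07, adjusted p = 0.758) after LPS + IL-4. The naive libraries ranged from 96.3 to 128 CPM and the LPS + IL-4 libraries from 182 to 201 CPM, with DKO and control overlapping at each of those stages.

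Ptprc encodes CD45, the abundant receptor-type phosphatase that keeps Src family kinases ready by removing their inhibitory phosphate, and it lies at chr1:138062859-138175756. In naive cells its level was lower in every mutant genotype, and the fall was DE in PU.1 cKO and DKO. Control libraries had 1101 and 1347 CPM, PU.1 cKO libraries 613 and 808 CPM, SpiB KO libraries 771 and 997 CPM and DKO libraries 655 and 901 CPM. All 6 mutant libraries lay below both control libraries. The level was 1.73-fold lower in PU.1 cKO (log2 fold change -0.79, SE 0.20, adjusted p = 0.0499) and 1.57-fold lower in DKO (log2 fold change -0.65, SE 0.20, adjusted p = 0.0521). Both calls rest on single libraries. In PU.1 cKO the adjusted p was 0.316 without the first PU.1 cKO library and 0.192 without the second control library, and in DKO it was 0.296 without the first DKO library and 0.228 without the second control library.

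After CD40L + IL-4, Ptprc was 659.8 and 639 CPM in control, 825 and 565 CPM in SpiB KO and 527 and 349 CPM in DKO. In DKO it was lower than in control (log2 fold change -0.58, SE 0.24, adjusted p = 0.137), a call that ended without either control library (adjusted p of 0.339 and 0.214) or the second DKO library (0.584, at a log2 fold change of -0.30). It was 1.58-fold lower than in SpiB KO (log2 fold change -0.66, SE 0.24, adjusted p = 0.109). The first SpiB KO library carried that last difference, since the adjusted p was 0.578 without it, and it was 0.516 without the second DKO library. After LPS + IL-4 the direction was the opposite. Control libraries had 522 and 468 CPM and DKO libraries 624 and 541 CPM, without overlap, a small rise (log2 fold change 0.31, SE 0.11, adjusted p = 0.0518) that also passed against PU.1 cKO (log2 fold change 0.25, SE 0.11, adjusted p = 0.119). The first of these calls ended without the second control library (adjusted p = 0.259), the first DKO library (0.326) or in the fit of all 24 libraries (0.49), and the other without either PU.1 cKO library (0.215 and 0.39), the first DKO library (0.533) or in that fit (0.627). Ptprcap, which encodes a small membrane protein associated with CD45, was not DE between genotypes, with a log2 fold change in DKO of -0.05 in naive cells, 0.05 after CD40L + IL-4 and 0.40 after LPS + IL-4.

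Ptprj encodes CD148, a receptor-type phosphatase that acts with CD45 on Src family kinases in B cells and macrophages. It spans chr2:90429756-90580694 and shares 168 bases with Gm46752, whose reads could not be told apart since the strand setting of the counting is not given. Its direction in DKO depended on the stage. Naive control libraries had 257 and 269 CPM, PU.1 cKO 242 and 236 CPM, SpiB KO 203 and 191 CPM and DKO 179 and 195 CPM. Both genotypes that lack SpiB lay below control and PU.1 cKO, without overlap. The falls in SpiB KO (log2 fold change -0.42, SE 0.10, adjusted p = 0.0465), in DKO (log2 fold change -0.48, SE 0.10, adjusted p = 0.00961) and in DKO against PU.1 cKO (log2 fold change -0.34, SE 0.10, adjusted p = 0.0649) passed the test but not the 1.5-fold limit. The call in SpiB KO ended without either SpiB KO library or the second control library (adjusted p of 0.186 to 0.217), and that against PU.1 cKO without either PU.1 cKO library or the first DKO library (0.243 to 0.292) and with quantile normalization (0.158). In the fit of all 24 libraries, which shares 1 estimate of the spread between stages, none of the 3 passed (0.173 to 0.455).

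After LPS + IL-4 Ptprj was instead 1.64-fold higher in DKO than in control (log2 fold change 0.72, SE 0.17, adjusted p = 0.0113) and 1.88-fold higher than in PU.1 cKO (log2 fold change 0.91, SE 0.17, adjusted p = 0.00836). The libraries held 49.6 and 36.0 CPM in control, while PU.1 cKO libraries had 41.7 and 31.8 CPM, SpiB KO libraries 58.6 and 57.3 CPM and DKO libraries 71.0 and 62.3 CPM. All SpiB KO and DKO libraries were above all control and PU.1 cKO libraries. The second library was the lower one in every genotype. Without that of control the log2 fold change in DKO was 0.48, under the fold limit. After CD40L + IL-4 the spread was wide, from the control values of 82.0 and 93.3 CPM to 106 and 67.4 CPM for PU.1 cKO, 120.1 and 68.6 CPM for SpiB KO and 80.8 and 46.5 CPM for DKO, and no comparison passed (in DKO log2 fold change -0.47, SE 0.32, adjusted p = 0.355).

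Ptpn22 encodes PEP, a PEST-domain phosphatase known for damping antigen receptor signals, whose human counterpart carries a variant linked to autoimmunity. It lies at chr3:103856575-103912252. It was the phosphatase with the most frequent change, and it rose in PU.1 cKO and in DKO at all 3 stages. In naive cells the control libraries had 33.7 and 27.5 CPM, PU.1 cKO 49.5 and 64.3 CPM, SpiB KO 40.4 and 39.7 CPM and DKO 73.2 and 66.3 CPM. The 4 genotypes did not overlap, with control lowest and DKO highest. The level was 1.86-fold higher in PU.1 cKO (log2 fold change 0.89, SE 0.16, adjusted p = 0.0102) and 2.30-fold higher in DKO (log2 fold change 1.20, SE 0.16, adjusted p = 0.000786). DKO was also 1.75-fold higher than SpiB KO (log2 fold change 0.81, SE 0.15, adjusted p = 0.0322), the only 1 of the 9 genes DE in that comparison (3.03% of all genes). That call ended without any 1 of 3 libraries, at an adjusted p of 0.221 without the first SpiB KO library, 0.224 without the second and 0.197 without the first DKO library.

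After CD40L + IL-4 the order of the Ptpn22 levels changed. Control libraries had 27.9 and 28.9 CPM, PU.1 cKO 77.2 and 73.8 CPM, SpiB KO 73.9 and 42.1 CPM and DKO 54.5 and 49.0 CPM. All 6 mutant libraries were above control, and the 2 SpiB KO libraries lay far apart, the first within the range of PU.1 cKO and the second below DKO. The level was 2.62-fold higher in PU.1 cKO (log2 fold change 1.39, SE 0.23, adjusted p = 0.00363) and 1.81-fold higher in DKO (log2 fold change 0.86, SE 0.23, adjusted p = 0.0325), the latter with an adjusted p of 0.162 without the first control library. In SpiB KO the log2 fold change of 1.01 (SE 0.23, adjusted p = 0.316) did not pass the main test, but DESeq2 gave an adjusted p of 0.0166. The effect of the double loss was smaller than the sum of both single losses, by -1.55 (SE 0.32, adjusted p = 0.0975) on the log2 scale, the only 1 of the 9 genes called for such an interaction at this stage (1.17% of all genes). Leaving out either control library, either PU.1 cKO library or the second DKO library ended that call, with an adjusted p of 0.151 to 0.309.

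After LPS + IL-4 Ptpn22 was DE in all 3 mutant genotypes. Control libraries had 43.0 and 34.4 CPM, PU.1 cKO 68.8 and 65.3 CPM, SpiB KO 60.6 and 58.5 CPM and DKO 66.1 and 67.0 CPM. The mutant libraries lay within a narrow range above both control libraries, and PU.1 cKO and DKO overlapped. The level was 1.76-fold higher in PU.1 cKO (log2 fold change 0.82, SE 0.11, adjusted p = 0.00159), 1.55-fold higher in SpiB KO (log2 fold change 0.63, SE 0.11, adjusted p = 0.0235) and 1.81-fold higher in DKO (log2 fold change 0.86, SE 0.11, adjusted p = 0.000516). For SpiB KO the adjusted p was 0.151 without its first library, and without the second control library the log2 fold change was 0.45, under the fold limit. An interaction of PU.1 and SpiB was called by edgeR for 0 of the 9 genes at this stage (1.48% of all genes), with an unadjusted p under 0.05 for 1, and for 1 by DESeq2 and by voom. In the fit with the replicate block, which pairs these libraries, that of Ptpn22 was -0.59 (adjusted p = 0.0305) and that of Ptprj 0.46 (adjusted p = 0.109). In naive cells edgeR called 0 of the 9 (0.936%), with an unadjusted p under 0.05 for 1, DESeq2 called 1 and voom 0.

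Ptpn22 is also expressed in T cells and in other leukocytes, and markers of such cells differed between genotypes. In naive cells the 9 T cell markers summed to 76.2 to 127 CPM in control, 126 CPM in both PU.1 cKO libraries, 407 to 493 CPM in SpiB KO and 604 to 605 CPM in DKO, with Cd8a the largest part, which had 2.45 to 13.0 CPM in control and 249 to 280 CPM in DKO. The 3 CD3 chains that define T cells summed to only 1.04 to 2.44 CPM in control and 2.53 to 2.78 CPM in DKO. The 8 plasmacytoid dendritic cell markers summed to 1928 to 2242 CPM in naive control, 1631 to 1730 CPM for PU.1 cKO, 3505 to 4374 CPM for SpiB KO and 3686 to 4145 CPM in DKO. Ly6d was the largest part of that sum, at 1827 and 1627 CPM in control and 2362 and 1967 CPM in DKO. Siglech of the same list had 62.2 and 25.0 CPM in control and 281 and 244 CPM in DKO. The 9 macrophage and dendritic cell markers summed to 23.3 to 48.3 CPM in control, 24.8 to 27.4 CPM for PU.1 cKO, 101 to 121 CPM for SpiB KO and 141 to 151 CPM in DKO. After LPS + IL-4 the 3 CD3 chains were at 0 in both control libraries and summed to at most 0.174 CPM in the mutants, and Klk1 was at 0 in every library. The 9 T cell markers there summed to 49.4 to 57.1 CPM in control and 114 to 119 CPM in PU.1 cKO. They summed to 86.3 to 91.9 CPM in SpiB KO and 161 to 174 CPM in DKO. Thy1 and Lck made up most of these sums. Thy1 had 37.4 and 30.5 CPM in control and 117 and 99.2 CPM in DKO. Lck had 17.6 and 17.7 CPM in control and 55.8 and 59.0 CPM in DKO. Cd8b1 went the other way, from 1.12 and 0.640 CPM in control to at most 0.0916 CPM in DKO. The plasmacytoid dendritic cell sum was 435 to 462 CPM in control and 557 to 626 CPM in DKO. That of macrophage and dendritic cell markers was lower in DKO, at 5.84 to 6.85 CPM against 11.6 to 18.0 CPM. In naive PU.1 cKO, Lck of the T cell list was higher, at 87.3 and 90.0 CPM against 54.0 and 62.1 CPM in control. The part of T cells, dendritic cells and macrophages in the level of Ptpn22 was not tested.

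Ptpn18 encodes another PEST-domain phosphatase, known for acting on HER2 in epithelial cells. It lies at chr1:34459729-34473784 and overlaps Gm32504 by 1307 bases. It rose in naive PU.1 cKO, where the libraries had 437 and 399.7 CPM against 274 and 252 CPM in control, 287 and 231 CPM in SpiB KO and 336 and 279.7 CPM in DKO. Both PU.1 cKO libraries were above every other naive library. It was 1.59-fold higher (log2 fold change 0.67, SE 0.14, adjusted p = 0.0223), a call that ended without the first PU.1 cKO library (adjusted p = 0.16). Naive DKO cells were lower than PU.1 cKO (log2 fold change -0.43, SE 0.14, adjusted p = 0.0884), which did not hold without either PU.1 cKO library (adjusted p of 0.359 and 0.206) or the second DKO library (0.383), in a comparison in which 0 of the 9 genes were DE with edgeR, DESeq2 or voom (12.9% of all genes) and 2 had an unadjusted p under 0.05. Against control the log2 fold change in DKO was 0.24 (SE 0.14, adjusted p = 0.257) in naive cells and 0.30 (SE 0.17, adjusted p = 0.267) after CD40L + IL-4. After LPS + IL-4 Ptpn18 rose in DKO by less than 1.5-fold, from 79.0 and 70.6 CPM to 90.5 and 96.1 CPM (log2 fold change 0.39, SE 0.10, adjusted p = 0.0123), and it was also higher than in PU.1 cKO (log2 fold change 0.25, SE 0.10, adjusted p = 0.0944), a call that ended without any 1 of the 4 libraries compared (adjusted p of 0.212 to 0.338) and in the fit of all 24 libraries (0.422).

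Ptpn1 encodes PTP1B, which sits on the endoplasmic reticulum and acts on insulin and cytokine receptors and on JAK kinases, and it lies at chr2:167930750-167979385. Ptpn2, its nearest relative, encodes TC-PTP, a brake on JAK and STAT signalling, at chr18:67665501-67724632. Neither reached 1.5-fold between genotypes. After LPS + IL-4, Ptpn1 was at 170.4 and 152 CPM in control, while PU.1 cKO libraries had 158 and 155 CPM, SpiB KO libraries 187 and 192 CPM and DKO libraries 204 and 189 CPM. DKO did not overlap with control or PU.1 cKO, and the rise passed against both (log2 fold change 0.36, SE 0.09, adjusted p = 0.0134, and log2 fold change 0.38, SE 0.09, adjusted p = 0.0191). After CD40L + IL-4 Ptpn1 was lower in DKO than in SpiB KO (log2 fold change -0.40, SE 0.14, adjusted p = 0.103), a call that ended without the first SpiB KO library (adjusted p = 0.393), either DKO library (0.221 and 0.384) or the filter on low counts (0.153), while against control the log2 fold change was -0.22 (SE 0.14, adjusted p = 0.328), and in naive DKO it was 0.23 (SE 0.12, adjusted p = 0.211).

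Ptpn2 fell in DKO after LPS + IL-4, from 87.4 and 105 CPM in control to 80.5 and 78.1 CPM (log2 fold change -0.21, SE 0.09, adjusted p = 0.106), and was lower there than the 95.7 and 97.9 CPM of PU.1 cKO (log2 fold change -0.24, SE 0.09, adjusted p = 0.0906). Both DKO libraries lay below every other library of that stage. Against control the call ended without either DKO library (adjusted p of 0.202 and 0.26) or the second control library (0.515, at a log2 fold change of -0.09), and against PU.1 cKO without any 1 of the 4 libraries compared (0.177 to 0.338). At the other stages its log2 fold change in DKO was -0.09 (SE 0.12, adjusted p = 0.633) in naive cells and 0.09 (SE 0.15, adjusted p = 0.742) after CD40L + IL-4.

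Ptpn7 encodes HePTP, a small phosphatase of blood cells that inactivates the MAP kinases ERK and p38. It lies at chr1:135131838-135145328 and overlaps Ptprv by 738 bases. After LPS + IL-4 its level was higher in every mutant genotype, past the test in PU.1 cKO and DKO. Control libraries had 91.7 and 99.7 CPM, PU.1 cKO 123 and 126 CPM, SpiB KO 117 and 107 CPM and DKO 137 and 124 CPM. Every mutant library was above both control libraries, and those of DKO were above those of SpiB KO. The rise passed in PU.1 cKO (log2 fold change 0.39, SE 0.09, adjusted p = 0.0182), in DKO (log2 fold change 0.52, SE 0.09, adjusted p = 0.00206) and in DKO against SpiB KO (log2 fold change 0.29, SE 0.09, adjusted p = 0.0486), all under 1.5-fold. The last call ended without the first DKO library (adjusted p = 0.289) or the second SpiB KO library (0.259). In the fit of all 24 libraries it did not pass either (0.48), nor did that of PU.1 cKO (0.252). In DKO the log2 fold change was 0.02 (SE 0.22, adjusted p = 0.959) in naive cells and -0.17 (SE 0.17, adjusted p = 0.539) after CD40L + IL-4.

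Counted over the 9 genes, DKO cells after LPS + IL-4 stood out in the number that passed the adjusted p without regard to fold, 8 of 9, but 48% of all genes did so as well in this most deeply sequenced stage. Of the 9 genes 6 rose, against 25.6% of all genes, and 2 fell, against 22.4%. The median log2 fold change of the 9 genes was 0.36 there, against 0.01 over all genes tested. Of the DE genes in that comparison 67.7% were higher, or 53.7% with quantile normalization. In naive DKO these shares were 59.3% and 47.05%, for 4 of the 9 genes that passed without regard to fold (34.8% of all genes).

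Most of the phosphatases were DE between naive and cultured control cells. With CD40L + IL-4, 5 of the 9 genes were DE against naive control cells (48.8% of all genes), and with LPS + IL-4, 8 of the 9 (63.9%). Upper quartile scaling would shift the median of all genes by -0.15 for LPS + IL-4 against naive and by -0.11 for LPS + IL-4 against CD40L + IL-4. The receptor-type genes and SHP-1 went down in both cultures. Ptprj fell the most, from 257 and 269 CPM in naive cells to 82.0 and 93.3 CPM with CD40L + IL-4 and 49.6 and 36.0 CPM with LPS + IL-4, which was 3.00-fold lower (log2 fold change -1.59, SE 0.26, adjusted p = 3.38e-05) and 6.16-fold lower (log2 fold change -2.62, SE 0.26, adjusted p = 3.8e-08). The stages did not overlap, and the level after LPS + IL-4 was also below that after CD40L + IL-4 (log2 fold change -1.04, SE 0.26, adjusted p = 0.00247).

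Ptprc fell from 1101 and 1347 CPM in naive cells to 659.8 and 639 CPM with CD40L + IL-4 (log2 fold change -0.91, SE 0.22, adjusted p = 0.00147) and 522 and 468 CPM with LPS + IL-4 (log2 fold change -1.31, SE 0.22, adjusted p = 2.73e-05). In the fit with the replicate block the first of these was -0.51, under the fold limit. Ptprcap, its partner, fell as well, from 1347 and 1162 CPM in naive cells to 387 and 506 CPM with CD40L + IL-4 and 309 and 291 CPM with LPS + IL-4, log2 fold changes of -1.49 and -2.06. Ptpn6 fell from 741 and 814 CPM to 454 and 419.98 CPM (log2 fold change -0.83, SE 0.13, adjusted p = 2.2e-05) and 500.5 and 437 CPM (log2 fold change -0.73, SE 0.13, adjusted p = 4.95e-05), the latter -0.57 with the block. For Ptpn6 both cultures thus reached like levels, with overlapping libraries.

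Ptpn18 fell by steps, from 274 and 252 CPM in naive cells to 112 and 150.3 CPM with CD40L + IL-4 (log2 fold change -1.01, SE 0.14, adjusted p = 8.07e-06) and 79.0 and 70.6 CPM with LPS + IL-4 (log2 fold change -1.81, SE 0.15, adjusted p = 1.7e-09). The difference between the cultures was DE (log2 fold change -0.81, SE 0.14, adjusted p = 0.000135) and was -0.58, under the fold limit, without the second CD40L + IL-4 library. Ptpn1 fell with LPS + IL-4, from 252 and 269.8 CPM to 170.4 and 152 CPM (log2 fold change -0.70, SE 0.11, adjusted p = 1.46e-05). With CD40L + IL-4 it stood at 231 and 229 CPM, below both naive libraries but short of the threshold (log2 fold change -0.18, SE 0.11, adjusted p = 0.169). The LPS + IL-4 level was below that of CD40L + IL-4 (log2 fold change -0.51, SE 0.11, adjusted p = 0.000818).

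Ptpn7, Ptpn2 and Ptpn11 went up. Ptpn7 rose from 38.3 and 52.6 CPM to 132 and 102 CPM with CD40L + IL-4, which was 2.58-fold higher (log2 fold change 1.37, SE 0.17, adjusted p = 1.98e-06), and to 91.7 and 99.7 CPM with LPS + IL-4, 2.11-fold higher (log2 fold change 1.08, SE 0.17, adjusted p = 1.63e-05). Ptpn2 rose from 53.2 and 47.5 CPM to 61.1 and 62.2 CPM (log2 fold change 0.29, SE 0.12, adjusted p = 0.0447) and to 87.4 and 105 CPM (log2 fold change 0.93, SE 0.12, adjusted p = 7.28e-07). Its level after LPS + IL-4 was above that after CD40L + IL-4 (log2 fold change 0.64, SE 0.12, adjusted p = 0.000163), by 0.50 without the second LPS + IL-4 control library, by 0.50 with quantile normalization and by 0.52 with upper quartile scaling. Ptpn11 rose from 111 and 123 CPM to 176 and 135 CPM (log2 fold change 0.41, SE 0.14, adjusted p = 0.022) and to 188 and 198 CPM (log2 fold change 0.72, SE 0.14, adjusted p = 0.000184), the latter 0.58 with quantile normalization and 0.55 with upper quartile scaling. Ptpn11 after LPS + IL-4 was also above CD40L + IL-4 (log2 fold change 0.31, SE 0.14, adjusted p = 0.0813), a call that ended without the second CD40L + IL-4 library (log2 fold change 0.13, adjusted p = 0.553), either LPS + IL-4 library (0.152 and 0.275), with quantile normalization (0.335), with upper quartile scaling (0.26) or with only the 2 groups compared (0.197). With CD40L + IL-4 against naive, the Ptpn11 call ended without the first CD40L + IL-4 library (0.301), and that of Ptpn2 without the second naive library (0.234) or with only the 2 groups compared (0.181).

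Ptpn22 had the smallest log2 fold changes of the 9 genes against naive cells in both control cultures, at 33.7 and 27.5 CPM in naive cells, 27.9 and 28.9 CPM with CD40L + IL-4 (log2 fold change -0.11, SE 0.20, adjusted p = 0.67) and 43.0 and 34.4 CPM with LPS + IL-4 (log2 fold change 0.34, SE 0.19, adjusted p = 0.121). The last of these passed, but not without the second naive library (adjusted p = 0.475) or the first LPS + IL-4 library (0.537), nor with DESeq2 (0.167), quantile normalization (0.329) or upper quartile scaling (0.451). Between the cultures it was higher after LPS + IL-4 (log2 fold change 0.44, SE 0.19, adjusted p = 0.0629), and Ptprc was lower (log2 fold change -0.39, SE 0.22, adjusted p = 0.144). The Ptpn22 call ended without the first CD40L + IL-4 library (adjusted p = 0.194), the first LPS + IL-4 library (0.38), with quantile normalization (0.165) or with upper quartile scaling (0.192), and the Ptprc call without any 1 of the 4 libraries (0.159 to 0.387). Of the 9 genes 3 were DE between the cultures (41.2% of all genes).

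**Figure D3:**
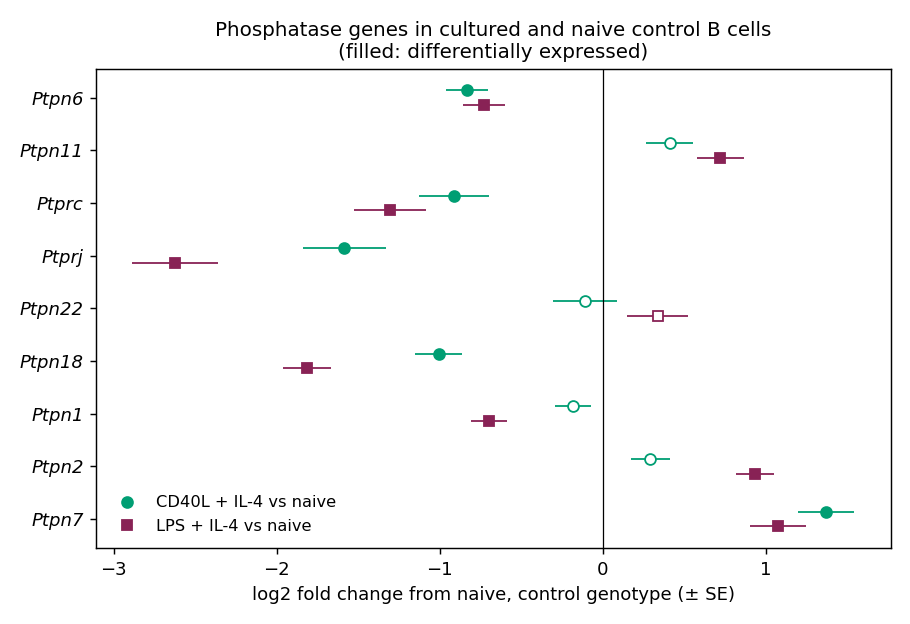
Log2 fold change from naive cells with its standard error (horizontal axis) for each phosphatase gene in control B cells cultured with CD40L + IL-4 or LPS + IL-4; filled symbols are differentially expressed. Ptprj, Ptpn18, Ptprc and Ptpn6 lie to the left of 0 in both cultures, Ptpn7 lies to the right in both, and Ptprj after LPS + IL-4 is the lowest at -2.62.

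Whether the genotype effects differed between stages was tested directly, as the difference between log2 fold changes against control in 1 fit of the 24 libraries, called at an adjusted p under 0.15. For the DKO effect, LPS + IL-4 and CD40L + IL-4 differed for 6 of the 9 genes (28.6% of all genes). The difference was positive for Ptpn6 (0.86, SE 0.18, adjusted p = 0.00504), Ptprj (1.11, SE 0.36, adjusted p = 0.0431), Ptprc (0.80, SE 0.30, adjusted p = 0.0807), Ptpn1 (0.50, SE 0.16, adjusted p = 0.0358) and Ptpn7 (0.61, SE 0.24, adjusted p = 0.0911), and negative for Ptpn2 (-0.38, SE 0.16, adjusted p = 0.126). Much of this rested on the second LPS + IL-4 control library, without which 1 of the 9 was called, and 3 were called without the first CD40L + IL-4 control library, the second CD40L + IL-4 DKO library or the first LPS + IL-4 DKO library. As the cultures came in different count tables, culture and table cannot be told apart here.

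Between CD40L + IL-4 and naive cells the DKO effect differed for 2 of the 9 genes (16.8% of all genes), Ptpn6 (-0.77, SE 0.18, adjusted p = 0.0102) and Ptpn1 (-0.44, SE 0.16, adjusted p = 0.0894). The Ptpn1 call ended without the second CD40L + IL-4 DKO library (adjusted p = 0.205), the first naive control library (0.188) or the second naive DKO library (0.26). Between LPS + IL-4 and naive cells, a comparison added after the values were seen and made within 1 count table, it differed for Ptprj (1.14, SE 0.35, adjusted p = 0.0328) and Ptprc (0.89, SE 0.30, adjusted p = 0.0518), 2 of the 9 genes (29.6%). These are the pair that were lower than control in naive DKO and higher in DKO after LPS + IL-4. Without the second LPS + IL-4 control library the adjusted p was 0.189 for Ptprj and 0.198 for Ptprc, and the Ptprc call also ended without the first naive DKO library (0.213), the second naive control library (0.179) or the first LPS + IL-4 DKO library (0.19).

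The PU.1 cKO effect differed between LPS + IL-4 and CD40L + IL-4 for 1 of the 9 genes (3.09% of all genes), Ptpn6 (0.68, SE 0.18, adjusted p = 0.0875), whose fall was larger with CD40L + IL-4. That call ended without the first CD40L + IL-4 control library (adjusted p = 0.184), the second CD40L + IL-4 PU.1 cKO library (0.271), the first LPS + IL-4 PU.1 cKO library (0.337) or the second LPS + IL-4 control library (0.338). It differed for 0 of the 9 between CD40L + IL-4 and naive cells with edgeR (9.05%), with an unadjusted p under 0.05 for 1, and for 1 with DESeq2 and with voom. Between LPS + IL-4 and naive cells edgeR called 0 of the 9 (6.34%), with an unadjusted p under 0.05 for 2, DESeq2 called 2 (Ptpn18 and Ptprc) and voom 0. For the SpiB KO effect edgeR called 0 of the 9 for CD40L + IL-4 against naive (2.15% of all genes), for LPS + IL-4 against CD40L + IL-4 (0%) and for LPS + IL-4 against naive (5.65%). The numbers with an unadjusted p under 0.05 were 1, 0 and 4, DESeq2 called 0, 0 and 1, and voom called 0 in each. Without the first naive control library the last of these comparisons had 3 of the 9 called. So the Ptpn22 rise of the mutants did not differ between stages past the test in any of these comparisons, which does not show that it was the same.

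**Figure D4:**
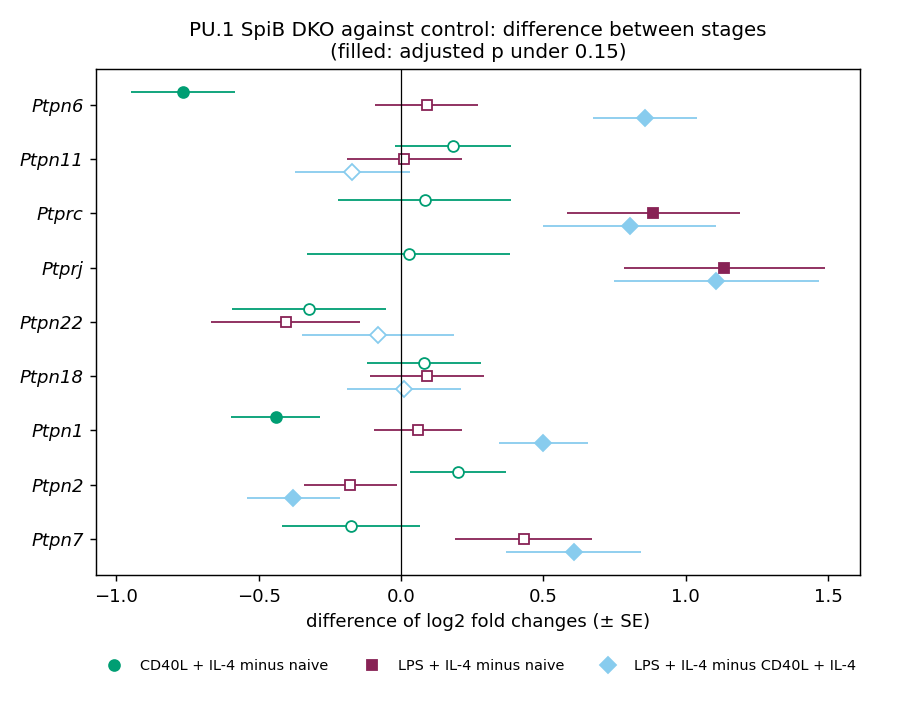
Difference between stages in the log2 fold change of PU.1 SpiB DKO against control, with its standard error (horizontal axis), for each phosphatase gene; filled symbols have an adjusted p under 0.15. Ptpn6 is low for CD40L + IL-4 minus naive and high for LPS + IL-4 minus CD40L + IL-4, and Ptprj and Ptprc are above 0 in both differences that involve LPS + IL-4.

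Among 33 other classical and small tyrosine phosphatase genes, 16 to 20 were tested in a given comparison. Of these 6 of 16 were DE in naive DKO (5 higher and 1 lower), 7 of 19 in DKO after CD40L + IL-4 (4 higher and 3 lower) and 6 of 16 in DKO after LPS + IL-4 (6 higher), against 21.2%, 18.3% and 20.2% of all genes. Ptprs, which encodes a receptor-type phosphatase of neurons and plasmacytoid dendritic cells, had 36.1 and 48.9 CPM in naive DKO against 8.15 and 8.33 CPM in control (log2 fold change 2.37, adjusted p = 5.18e-05). Ptpn14, a phosphatase linked to cell junctions, rose to 49.5 and 65.6 CPM in naive DKO from 10.8 and 16.9 CPM (2.05, adjusted p = 0.000327). Naive SpiB KO cells showed both rises, of 1.74 for Ptprs (adjusted p = 0.000538) and 1.34 for Ptpn14 (adjusted p = 0.00806). Ptpn14 also rose in naive PU.1 cKO (0.83, adjusted p = 0.0605). Ptpn5, which encodes the neuronal phosphatase STEP, rose in DKO cells of both cultures, from 1.69 and 2.36 CPM to 14.2 and 9.80 CPM with CD40L + IL-4 (2.56, adjusted p = 0.00148) and from 0.415 and 0.267 CPM to 5.29 and 3.82 CPM with LPS + IL-4 (3.91, adjusted p = 3.34e-05). Ptpn5 rose in PU.1 cKO as well, by 1.89 with CD40L + IL-4 (adjusted p = 0.0115) and 3.42 with LPS + IL-4 (adjusted p = 0.000185). With LPS + IL-4 it also rose in SpiB KO (1.70, adjusted p = 0.0409). In control cells 11 of 20 were DE with CD40L + IL-4 against naive (6 higher and 5 lower) and 13 of 20 with LPS + IL-4 (5 higher and 8 lower), against 48.8% and 63.9% of all genes.

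Phosphatases act against kinases, and 18 genes of kinases, adaptors and receptor chains of the B cell receptor and cytokine pathways were counted beside them. After CD40L + IL-4, 6 of the 18 were DE in PU.1 cKO and 8 of the 18 in DKO, against 13.5% and 18.3% of all genes, and in both 0 were higher. The median log2 fold change in DKO was -0.48, against 0.00155 over all genes. Jak2, the kinase of several cytokine receptors and a substrate of PTP1B, had 71.8 and 58.4 CPM in DKO against 171 and 175 CPM in control (-1.42, adjusted p = 0.00217), Btk 71.2 and 63.9 CPM against 166 and 165 CPM (-1.30, adjusted p = 0.000547), and Lyn, the kinase that phosphorylates ITIM motifs, 91.7 and 62.5 CPM against 175 and 199 CPM (-1.29, adjusted p = 0.00321). In naive cells Fyn, a Src family kinase on which CD45 and PEP act, went opposite ways. It fell in PU.1 cKO (-0.87, adjusted p = 0.00148) and rose in SpiB KO (0.99, adjusted p = 0.000543) and in DKO (1.17, adjusted p = 9.43e-05). With LPS + IL-4, 2 of the 18 were DE in PU.1 cKO (2 lower) and 5 in DKO (3 higher and 2 lower), against 10.5% and 20.2% of all genes.

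A list of 17 receptor and adaptor genes was counted as well, most of which bring SHP-1 or SHP-2 to the membrane. Of its DE genes, more were lower than higher in PU.1 cKO at every stage. After CD40L + IL-4, 7 of 15 tested were DE in PU.1 cKO (7 lower) and 11 of 15 in DKO (2 higher and 9 lower), against 13.5% and 18.3% of all genes. The median log2 fold change was -0.93 in DKO. Siglecg, an inhibitory receptor of B cells, had 15.1 and 18.8 CPM in DKO against 125 and 150.3 CPM in control (-3.03, adjusted p = 1.69e-05). The list and its counts also hold Fcrla, an intracellular relative of the Fc receptors that does not itself bring these phosphatases to the membrane. Fcrla had 21.5 and 22.2 CPM in PU.1 cKO against 71.1 and 122 CPM in control (-2.16, adjusted p = 0.00121). In naive cells 5 of 16 were DE in PU.1 cKO (1 higher and 4 lower) and 8 of 16 in DKO (4 higher and 4 lower), against 10.7% and 21.2% of all genes. In naive DKO Lair1, a collagen receptor that recruits SHP-1, rose from 23.4 and 8.92 CPM to 176 and 180 CPM (3.48, adjusted p = 0.000109) beside the rise of the dendritic cell markers. Lair1 rose in naive SpiB KO as well (3.07, adjusted p = 0.000476). With LPS + IL-4, 7 of 14 were DE in PU.1 cKO (1 higher and 6 lower) and 8 of 14 in DKO (3 higher and 5 lower), against 10.5% and 20.2% of all genes. In control cells 13 of 16 were DE with CD40L + IL-4 against naive (1 higher and 12 lower) and 16 of 16 with LPS + IL-4 (2 higher and 14 lower), against 48.8% and 63.9% of all genes.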

How the data were processed

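RNA-seq was performed on 24 libraries, 2 per genotype and stage, grouped by the titles. The authors aligned reads to GRCm38/mm10 with Subread, kept uniquely mapped reads and deposited whole-number counts per RefSeq gene from featureCounts, raw and in 2 tables, one of which holds the CD40L + IL-4 libraries alone under a name that says trimmed. Versions and the strand setting are not given in the sources used here. The deposited log2 RPKM values were made by the authors with voom and quantile normalization, separately per table, and served only for levels between genes. The order of stages in the tables differed from that assumed when the tests were chosen, so the limit of a separate table applies to the CD40L + IL-4 stage. Rows without a gene name (517 rows, 0.162% of counts) stayed in the library totals, and in the tests where they passed the filter.

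Genes reaching 0.5 CPM or more in 2 or more libraries entered the test of edgeR 4.0.16 (R 4.3.3), a quasi-likelihood test with TMM scaling, over the 8 libraries of a stage for genotypes (12500 naive, 12721 CD40L + IL-4 and 12445 LPS + IL-4 genes) or over the 24 libraries for stages and stage differences (13684 genes). The standard error is the log2 fold change divided by the square root of F. Benjamini-Hochberg adjustment ran over all genes. Genes were DE at an adjusted p under 0.15 and over 1.5-fold, and interactions and stage differences were called at an adjusted p under 0.15. Alternatives were DESeq2 1.42.0, voom with quantile normalization (limma 3.58.1), no filter, an adjusted p under 0.05, a replicate block, 1 common fit or upper quartile scaling, and each library left out. The tests were checked on simulated data. Same-numbered libraries deviated together with LPS + IL-4 (correlations of 0.369 to 0.511 in 6 of 6 pairs of genotypes), so the replicate number pairs them there. The main tests did not use this pairing, and leaving out 1 library removes it without its partners. That the libraries of a group come from separate animals is not in the labels, and p-values measure the spread between these libraries.

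All 9 members, Spi1 and Spib are named, with a log2 fold change where the adjusted p was under 0.15 and for every member in DKO against control. Of each gene list at most 4 DE genes per comparison were named by size, and single other values (Ptprcap, Ptpn22 in SpiB KO, Cd8a, Lck) after they were seen. The members, gene lists and motifs were chosen with earlier results of these data known. A further gene close to Ptpn7 in its levels is not reported here.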

Additional observations from a re-analysis of the deposited data

Results flagged for a closer look

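The results below were flagged because the effect of a genotype on a phosphatase gene differed between stages, or because the double loss departed from the sum of the single losses, each by a test of the difference itself in edgeR. All are on the log2 scale, with the standard error and the adjusted p. The differences that involve CD40L + IL-4 compare libraries of separate count tables, and all of a stage's comparisons share its control libraries.

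Ptpn22 after CD40L + IL-4 had an interaction of PU.1 and SpiB of -1.55 (SE 0.32, adjusted p = 0.0975). The PU.1 cKO effect on Ptpn6 was 0.68 higher with LPS + IL-4 than with CD40L + IL-4 (SE 0.18, adjusted p = 0.0875), that is, the fall was smaller with LPS + IL-4. For the DKO effect, CD40L + IL-4 minus naive gave -0.44 for Ptpn1 (SE 0.16, adjusted p = 0.0894) and -0.77 for Ptpn6 (SE 0.18, adjusted p = 0.0102).

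LPS + IL-4 minus CD40L + IL-4 gave, for the DKO effect, 0.50 for Ptpn1 (SE 0.16, adjusted p = 0.0358), -0.38 for Ptpn2 (SE 0.16, adjusted p = 0.126), 0.86 for Ptpn6 (SE 0.18, adjusted p = 0.00504), 0.61 for Ptpn7 (SE 0.24, adjusted p = 0.0911), 0.80 for Ptprc (SE 0.30, adjusted p = 0.0807) and 1.11 for Ptprj (SE 0.36, adjusted p = 0.0431). LPS + IL-4 minus naive gave 0.89 for Ptprc (SE 0.30, adjusted p = 0.0518) and 1.14 for Ptprj (SE 0.35, adjusted p = 0.0328), and this last comparison was added after the values were seen. All groups had 2 libraries, so that no library could be flagged for lying far from the others of its group.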

How the results depend on the processing

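Over 86 values of single genes and their alternatives, 829 kept direction and call (DE, or for interactions and stage differences an adjusted p under 0.15), 73 lost the call, 8 gained it and 10 changed sign, all 10 for log2 fold changes in DKO that did not pass in the first place. Held to an adjusted p under 0.15 alone, 74 values passed, of which 38 missed it without some library, 18 under some other setting, and 34 under none. Ptpn11 changed sign in naive DKO with quantile normalization (0.049) and after LPS + IL-4 in the fit of all 24 libraries (-0.039). With 1 library left out, Ptpn11 ranged from -0.25 to 0.12 in naive DKO, from -0.063 to 0.34 after CD40L + IL-4 and from -0.020 to 0.074 after LPS + IL-4, Ptpn7 from -0.23 to 0.30 in naive DKO and from -0.35 to 0.043 after CD40L + IL-4, and Ptpn2 from -0.030 to 0.21 after CD40L + IL-4. The counts of the 9 genes called moved as follows. At an adjusted p under 0.05, naive DKO against control fell from 2 to 1, DKO against SpiB KO after CD40L + IL-4 from 2 to 1, the interaction after CD40L + IL-4 from 1 to 0, and the stage differences of PU.1 cKO (LPS + IL-4 minus CD40L + IL-4) from 1 to 0 and of DKO from 2 to 1 (CD40L + IL-4 minus naive) and from 6 to 3 (LPS + IL-4 minus CD40L + IL-4). With voom and quantile normalization, naive DKO fell from 2 to 1 and the CD40L + IL-4 interaction from 1 to 0, while the LPS + IL-4 interaction and the PU.1 cKO difference of CD40L + IL-4 minus naive rose from 0 to 1. With DESeq2, the naive and LPS + IL-4 interactions, SpiB KO against control after CD40L + IL-4 and the PU.1 cKO difference of CD40L + IL-4 minus naive rose from 0 to 1. Without the filter on low counts the naive interaction rose from 0 to 2, SpiB KO after CD40L + IL-4 and the LPS + IL-4 interaction from 0 to 1, and the DKO difference of CD40L + IL-4 minus naive fell from 2 to 1. In the fit of all 24 libraries SpiB KO after CD40L + IL-4 rose from 0 to 1. With a replicate block the naive interaction rose from 0 to 3, SpiB KO after CD40L + IL-4 from 0 to 1, the LPS + IL-4 interaction from 0 to 2, the PU.1 cKO differences from 0 to 2 (CD40L + IL-4 minus naive) and 1 to 2 (LPS + IL-4 minus CD40L + IL-4), and the SpiB KO difference of CD40L + IL-4 minus naive from 0 to 1. The cause of these moves was not tested. Over all genes, the number called moved most where it was small. For SpiB KO after CD40L + IL-4 it was 17 with edgeR, 76 with DESeq2, 12 with voom, 193 without the filter, 57 with the block and 73 in the common fit, and for the interaction it was 117, 436, 90, 1088, 1413 and 329 in naive cells, 149, 284, 75, 647, 409 and 523 with CD40L + IL-4 and 184, 376, 208, 779, 1286 and 84 with LPS + IL-4. The differences of PU.1 cKO and SpiB KO effects between stages also gained, with the block from 423 to 1301 (PU.1 cKO, LPS + IL-4 minus CD40L + IL-4), 868 to 2433 (PU.1 cKO, LPS + IL-4 minus naive), 1238 to 2456 (PU.1 cKO, CD40L + IL-4 minus naive), 294 to 1128 (SpiB KO, CD40L + IL-4 minus naive) and 773 to 2329 (SpiB KO, LPS + IL-4 minus naive). Quantile normalization lowered the share of DE genes that were higher from 76.8% to 58.4% for naive DKO against PU.1 cKO, and after LPS + IL-4 from 72.4% to 59.5% for DKO against PU.1 cKO and from 67.7% to 56.8% for DKO against SpiB KO. The block moved no other of these counts by over 1.5 times, and outside LPS + IL-4 the numbers may not pair the libraries (correlations of 0.058 to 0.210 in naive cells and -0.073 to 0.266 with CD40L + IL-4). With 1 library left out, the counts ranged over 1 to 4 for naive PU.1 cKO, 0 to 2 for naive SpiB KO, 1 to 2 for naive DKO, 0 to 1 for naive DKO against SpiB KO and for the naive interaction, 2 to 3 for PU.1 cKO, 0 to 1 for SpiB KO, 1 to 4 for DKO, 1 to 3 for DKO against SpiB KO and 0 to 1 for the interaction with CD40L + IL-4, 0 to 2 for SpiB KO, 1 to 2 for DKO and 0 to 2 for the interaction with LPS + IL-4, 5 to 6 and 2 to 4 for control CD40L + IL-4 against naive and LPS + IL-4 against CD40L + IL-4, 0 to 1 for the PU.1 cKO difference of LPS + IL-4 minus CD40L + IL-4 and the SpiB KO difference of CD40L + IL-4 minus naive, and 1 to 2 and 1 to 5 for the DKO differences of CD40L + IL-4 minus naive and LPS + IL-4 minus CD40L + IL-4. For LPS + IL-4 minus naive, added later, they ranged over 0 to 1 for PU.1 cKO (0 with all libraries), 0 to 3 for SpiB KO (0) and 0 to 3 for DKO (2). The lone library then left in a group was assumed to vary like those of the other groups. With 2 libraries a group, these p-values rest on few degrees of freedom, and depth was lowest, 1 library apart, with CD40L + IL-4.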

Other observations

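The genes whose level over the 12 group means of log2 CPM was most like that of each phosphatase, among 8737 genes of at least 10 CPM on average, are given as a description, since the means share stages, libraries and scaling. For Ptpn22 the closest were Rasal1 (Pearson r = 0.816), Mybpc3 (0.796) and Tpst2 (0.771), the lowest such values of the 9 genes. For Ptpn6 they were Zbtb18 (0.961), Inpp5f (0.951) and Cybb (0.947), the last a subunit of the phagocyte oxidase. The closest genes of Ptprc were Lrch1 (0.956), Vps11 (0.948) and Arhgap26 (0.947), and those of Ptprj were Ulk2 (0.993), Card6 (0.992) and Klhl24 (0.992).

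Ptpn18 was closest to Rap2b (0.989), Tpt1 (0.986) and B3gat3 (0.986), and Ptpn1 to Fbxo32 (0.976), Bscl2 (0.974) and Gpr108 (0.970). Ptpn2 was closest to Skiv2l2 (0.992), Trmt10a (0.991) and Pcgf6 (0.991), Ptpn11 to Atrip (0.994), 2700050L05Rik (0.994) and Lrrc59 (0.994), and Ptpn7 to Akap2 (0.993) and Cenpc1 (0.987).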
